A study of Homo sapiens with 9 samples.

Results

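Pregnancy-specific glycoproteins (PSGs) are secreted members of the immunoglobulin superfamily and form, with the carcinoembryonic antigen related (CEACAM) proteins, 1 gene family on chromosome 19. The members described here are 10 PSG genes, PSG1, PSG2, PSG3, PSG4, PSG5, PSG6, PSG7, PSG8, PSG9 and PSG11, out of 20878 genes in the table of transcript counts. They were found by gene name, and all 10 names were present. For each gene the transcript was selected on its total count over the 9 libraries, the highest being kept, and no difference between lines entered that choice. The family was picked out with earlier results of these libraries known, PSG1 among them, so its level in the APC line is given as a description and not as independent evidence.

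In pregnancy PSGs are made by the syncytiotrophoblast, the fused outer layer of the placenta, and are among the most abundant fetal proteins in maternal blood. They act on cells of the maternal immune system and vessels. PSG1 and PSG9 activate latent transforming growth factor beta, PSG1 also binds integrins, heparan sulphate chains and galectin-1, and PSG1, PSG6 and PSG11 raise anti-inflammatory cytokines in human monocytes. Outside the placenta the genes are mostly silent, although PSG9 transcripts have been reported in colorectal adenomas and carcinomas.

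The data are polyadenylated RNA-seq counts from 3 groups of 3 libraries. The line called APC is clone D2.15, SW480 cells that carry pEF-mycAPC, and the line called CONTROL is clone R38.7, SW480 cells that carry the empty pEF vector. SW480 is the parental human colorectal cancer line, in which the tumour suppressor APC, needed for the breakdown of beta-catenin, is defective. Both clones derive from it, and whether their genomes differ from the parent's beyond the construct was not tested. All were grown in RPMI with serum, insulin, hydrocortisone and thioglycerol, and RNA was taken 72 h after plating on 100 mm plates. G418 at 1.5 mg/ml was present for both clones and not for the parent, and 2 cells of the APC line were seeded for every 3.35 of either other line. The comparison of APC with CONTROL addressed what differed beyond the effects of vector and selection, although seeding differed there too. CONTROL against SW480 joined the effects of vector, selection and the isolation of a clone, which cannot be told apart. Each construct was represented by 1 clone, so a difference between clones and an effect of the construct cannot be told apart. The replicates were parallel plates, so the p-values reflect plate-to-plate spread only.

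The 6 members with enough counts for a test differ little at the start of their coding sequence, shown here as an example of their likeness. How well reads from it can be assigned depends on read length, which is not given. The first 90 coding bases of each are shown from the GENCODE 29 transcript that matches the transcript counted (build GRCh38, chromosome 19, minus strand). Of these bases 64 lie in the first coding exon and 26 in the next one, and the intron between them is left out of the letters. Capitals mark bases that differ from PSG1.
PSG1 (chr19:42878253-42879581): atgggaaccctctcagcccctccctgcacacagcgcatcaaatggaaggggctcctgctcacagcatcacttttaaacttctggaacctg
PSG11 (chr19:43025031-43026372): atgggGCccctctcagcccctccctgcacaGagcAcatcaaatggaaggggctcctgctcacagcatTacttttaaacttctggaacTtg
PSG2 (chr19:43081221-43082569): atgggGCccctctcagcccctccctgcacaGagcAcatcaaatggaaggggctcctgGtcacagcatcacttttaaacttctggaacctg
PSG5 (chr19:43185122-43186405): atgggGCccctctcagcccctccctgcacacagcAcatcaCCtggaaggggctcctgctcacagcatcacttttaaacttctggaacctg
PSG8 (chr19:42764256-42765581): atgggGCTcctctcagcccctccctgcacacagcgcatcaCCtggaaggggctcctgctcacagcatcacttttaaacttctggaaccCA
PSG9 (chr19:43268124-43269431): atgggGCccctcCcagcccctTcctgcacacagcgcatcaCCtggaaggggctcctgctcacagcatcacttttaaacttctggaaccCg
PSG2 and PSG5 each differed from PSG1 at 5 of the 90 bases, PSG11 at 6, and PSG8 and PSG9 at 7 each.

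Library totals over genes ranged from 16456736 counts in CONTROL replicate 2 to 19358023 counts in CONTROL replicate 3, and 3 counts were worth 0.156 to 0.184 CPM (the count scaled by library size with TMM factors). No plates of a line looked like 1 library deposited again (chi-square per degree of freedom 1.34 to 5.38), and each was kept as its own sample. The APC gene itself, the gene introduced, had 2721, 2519 and 2390 counts in APC libraries, against 896, 753 and 951 in CONTROL and 866, 926 and 959 in SW480. It was higher in APC than in CONTROL by 1.60 ± 0.05 on the log2 scale (SE, edgeR adjusted p = 2.59e-25) and than in SW480 by 1.56 ± 0.05 (edgeR adjusted p = 4.31e-25), as the labels imply.

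The PSG genes gave few reads in the APC line. Summed over the 10 members, the libraries held 15, 14 and 13 counts in APC, against 342, 288 and 358 in CONTROL and 374, 409 and 347 in SW480. All 3 APC libraries lay far below the other 6, while the counts of CONTROL and SW480 overlapped. The summed level was 0.798 ± 0.0340 CPM in APC, 18.2 ± 0.472 CPM in CONTROL and 20.2 ± 1.64 CPM in SW480 (SD, n = 3 each), so that APC held 4.38% of the CONTROL level and 3.94% of the level in SW480. In these bulk libraries fewer cells that transcribe a gene and less RNA per cell cannot be told apart. Each APC library had at least 1 count in 6 of the 10 members, CONTROL libraries in 8, 10 and 9, and SW480 libraries in all 10.

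**Figure D1:**
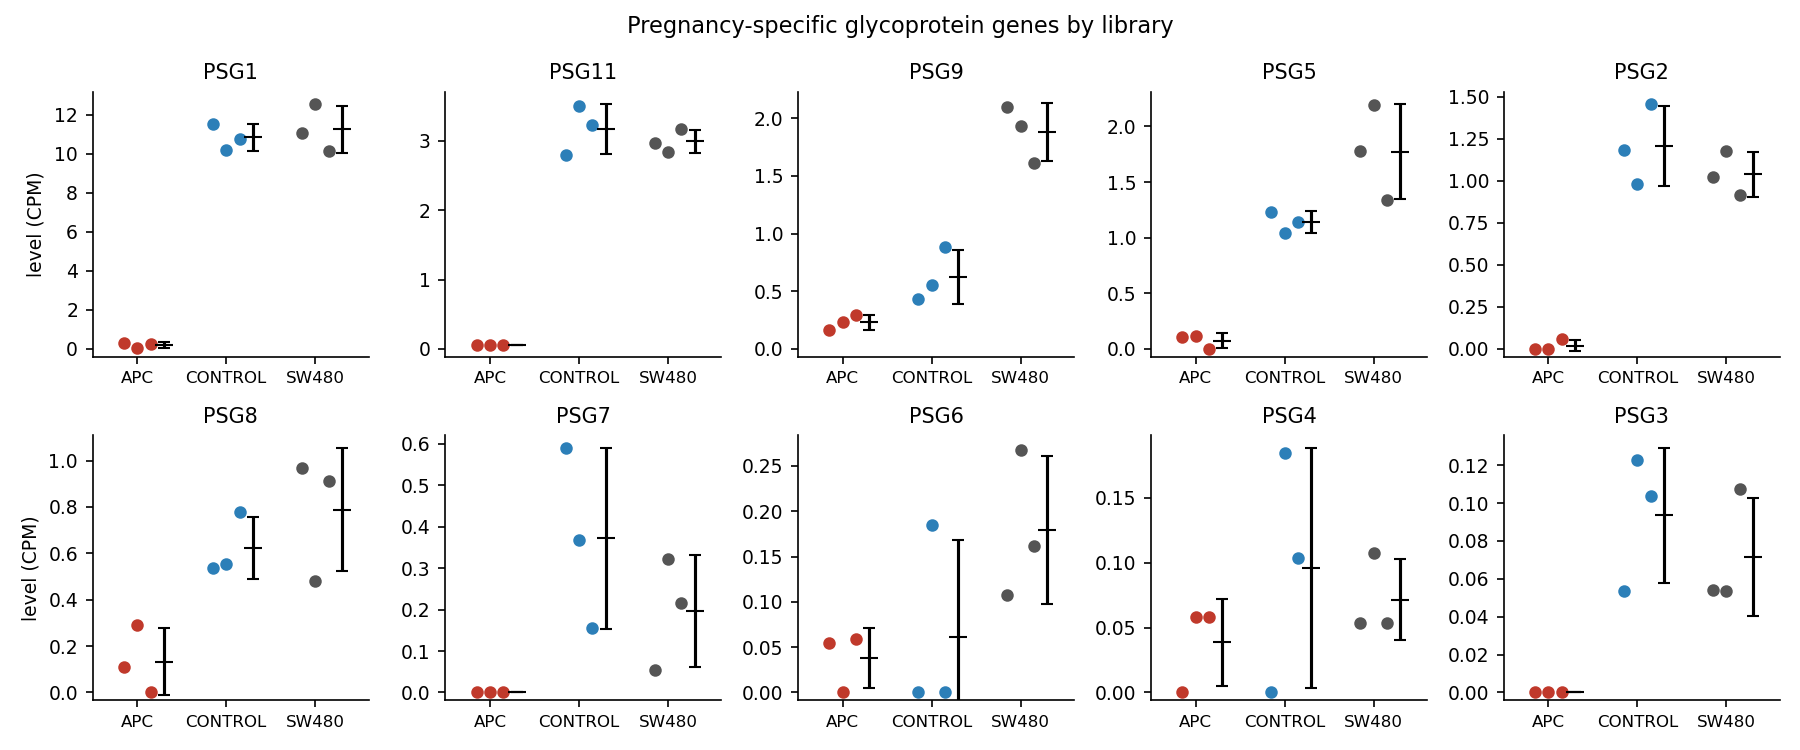
Level of each PSG gene in CPM (vertical axes, each panel on its own scale) in the APC, CONTROL and SW480 libraries. Points are libraries, bars the mean and SD of 3 libraries, cut off at the foot of a panel where they pass below 0; in the upper panels the APC libraries lie below all CONTROL and SW480 libraries for PSG1, PSG11, PSG9, PSG5 and PSG2.

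The members that passed the filter on low counts were PSG1, PSG2, PSG5, PSG8, PSG9 and PSG11. The lowest of them, PSG8, had 85 counts over the 9 libraries, and PSG7, the highest of the 4 that did not pass, had 31. The 6 passed through their counts in CONTROL and SW480, since their APC means were 0.0195 to 0.230 CPM, so a lower level in APC was largely fixed by the filter and the counts of calls below only describe them. All 6 were lower in APC than in CONTROL, and 0 were higher, where 35.4% of the 14255 genes tested were lower and 34.8% were higher (edgeR, Benjamini-Hochberg adjusted p under 0.05 over all genes tested). Against SW480 the counts were again 6 lower and 0 higher, where 36.9% of genes were lower and 35.6% higher. At an unadjusted p under 0.05 and with DESeq2 the number higher was also 0. These comparisons share the APC libraries.

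PSG1, the member that gave most of the family's reads outside the APC line, had 6, 1 and 4 counts in APC libraries, against 215, 166 and 207 in CONTROL and 205, 234 and 189 in SW480. Even the highest APC library was far under the lowest of the others. The levels were 0.207 ± 0.138 CPM in APC, 10.8 ± 0.677 CPM in CONTROL and 11.2 ± 1.21 CPM in SW480 (SD, n = 3 each). PSG1 fell, with log2 fold changes of −5.65 ± 0.23 against CONTROL (SE, edgeR adjusted p = 4.76e-21) and −5.70 ± 0.23 against SW480 (edgeR adjusted p = 2.52e-21). Among all 14255 genes these were the 36th and the 48th lowest fold changes. DESeq2 gave −5.69 ± 0.45 and −5.74 ± 0.45 (SE), so the edgeR SE understates the error that so few APC reads bring. In summed reads the APC level was 51.9 times lower than in CONTROL, with an exact 95% counting interval of 28.8 to 105, which like the other such intervals covers counting error only.

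The isoforms of PSG1 had nearly the same counts. Its 3 annotated transcripts, of 2071, 1985 and 2276 bases, had totals of 1227, 1176 and 1071 counts over all libraries. In APC libraries the shortest gave 5, 1 and 3 counts and the longest 3, 1 and 4, against 183, 151 and 182 for the longest in CONTROL. The rows of 1 gene may hold the same reads, so their likeness is no separate evidence, and how reads were shared among isoforms was not tested. PSG11 was alike, with totals of 341, 295 and 287 counts for its 3 transcripts, and the 3 transcripts of PSG7 had the same counts in every library.

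PSG11, one of the members known to act on monocytes, had 1 count in each APC library, against 52, 57 and 62 in CONTROL and 55, 53 and 59 in SW480. The APC libraries were far below the rest, and the CONTROL and SW480 libraries overlapped. The level was 0.0571 ± 0.00185 CPM in APC, 3.17 ± 0.357 CPM in CONTROL and 2.99 ± 0.166 CPM in SW480. With 3 counts in the whole APC group, the difference is given as a ratio of summed reads, 55.4 times lower in APC than in CONTROL with an interval of 18.6 to 271 (edgeR adjusted p = 5e-15) and 52.4 times lower than in SW480 with an interval of 17.6 to 257 (edgeR adjusted p = 9.25e-15).

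PSG2, whose transcript is closest to that of PSG11 in sequence, had 0, 0 and 1 counts in APC libraries, against 22, 16 and 28 in CONTROL and 19, 22 and 17 in SW480. The APC libraries were at or next to 0 and the other lines overlapped. The ratio of summed reads was 64.1 against CONTROL, with an interval of 11.1 to 2570 (edgeR adjusted p = 1.47e-09), and 54.6 against SW480, with an interval of 9.42 to 2194 (edgeR adjusted p = 7.97e-09). A single APC read, in replicate 3, sets the width of these intervals, and without that library the APC group had 0 counts.

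PSG5, the member whose promoter has been studied most, had 2, 2 and 0 counts in APC libraries, against 23, 17 and 22 in CONTROL and 33, 41 and 25 in SW480. All APC libraries were lowest, and every SW480 library was above every CONTROL library. PSG5 stood at 0.0752 ± 0.0652 CPM in APC, 1.14 ± 0.0954 CPM in CONTROL and 1.77 ± 0.427 CPM in SW480. PSG5 fell, with log2 fold changes of −3.79 ± 0.52 against CONTROL (edgeR adjusted p = 6.97e-08) and −4.42 ± 0.46 against SW480 (edgeR adjusted p = 2.25e-10). With DESeq2 the values were −3.90 ± 0.80 and −4.53 ± 0.79 (SE), again with a wider error.

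PSG9, which shares with PSG1 the activation of latent transforming growth factor beta, had 3, 4 and 5 counts in APC libraries, against 8, 9 and 17 in CONTROL and 39, 36 and 30 in SW480. The 3 groups were separate from one another, with CONTROL in the middle and CONTROL replicate 3 the highest of its group. The level was 0.230 ± 0.0637 CPM in APC, 0.622 ± 0.235 CPM in CONTROL and 1.88 ± 0.248 CPM in SW480. PSG9 fell by 3.00 ± 0.35 on the log2 scale against SW480 (edgeR adjusted p = 2.61e-09). Against CONTROL its log2 fold change was −1.43 ± 0.45 (edgeR adjusted p = 0.00572), the smallest of the 6 in size. Without CONTROL replicate 3 the call against CONTROL was lost (−1.06 ± 0.53, edgeR adjusted p = 0.0765).

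PSG8, for which no separate role is given here, had 2, 5 and 0 counts in APC libraries, against 10, 9 and 15 in CONTROL and 18, 9 and 17 in SW480. The APC libraries were below all others, although the gap between 5 and 9 counts is small. The levels were 0.133 ± 0.146, 0.623 ± 0.136 and 0.788 ± 0.266 CPM in APC, CONTROL and SW480. PSG8 fell, with log2 fold changes of −2.18 ± 0.57 against CONTROL (edgeR adjusted p = 0.00102) and −2.50 ± 0.53 against SW480 (edgeR adjusted p = 0.000101). Without APC replicate 2, which held 5 of its 7 APC counts, the log2 fold changes were −3.31 and −3.64. Without APC replicate 3, which held 0, they were −1.62 and −1.95.

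The 4 members below the filter gave 31 counts or fewer each. PSG7 had 0 counts in all 3 APC libraries, against 11, 6 and 3 in CONTROL and 1, 6 and 4 in SW480. With the APC group set at a floor of 3 counts, this is 6.47-fold lower than CONTROL and 3.45-fold lower than SW480. That floor takes no account of counting error in the other lines, so these folds are not lower bounds. PSG3 also had 0 counts in every APC library, against 1, 2 and 2 in CONTROL and 1, 1 and 2 in SW480, too few for a fold to be given. Both were at 0 in APC and low elsewhere.

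PSG6 had 1, 0 and 1 counts in APC libraries, against 0, 3 and 0 in CONTROL and 2, 5 and 3 in SW480. The ratio of summed reads was 1.46 against CONTROL, with an interval of 0.167 to 17.4, and 4.71 against SW480, with an interval of 1.00 to 44.2. PSG4 had 0, 1 and 1 counts in APC libraries, against 0, 3 and 2 in CONTROL and 1, 2 and 1 in SW480, with ratios of 2.43 and 1.88 and intervals of 0.398 to 25.5 and 0.270 to 20.8. No difference of PSG4 between these lines, or of PSG6 between APC and CONTROL, was detectable at this depth. PSG10P, a pseudogene in the same cluster that is not a member, had 8 counts in all, 3 of them in APC, 3 in CONTROL and 2 in SW480.

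**Figure D2:**
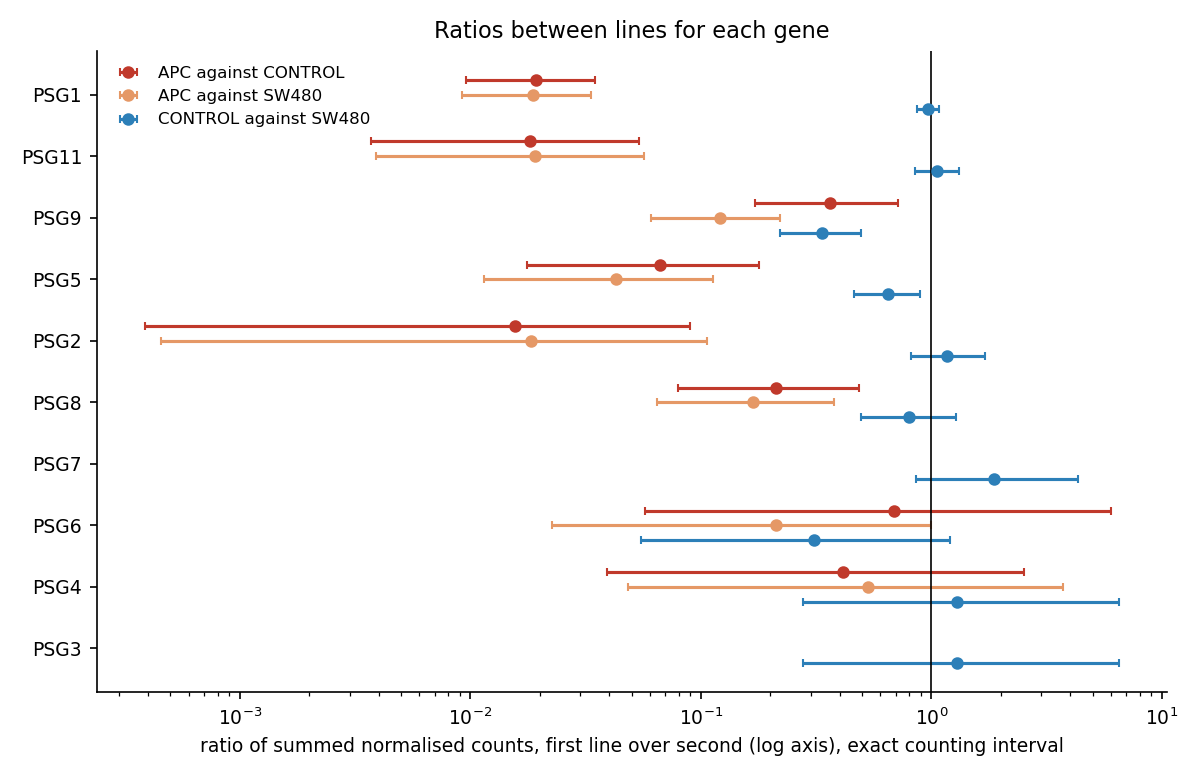
Ratio of summed reads for each PSG gene, the line named first in the legend over the one after it (horizontal log axis), with exact 95% counting intervals as bars. PSG1, PSG11 and PSG2 lie near a ratio of 0.02 in both APC comparisons and near 1 for CONTROL against SW480, while PSG9 is the member whose CONTROL against SW480 ratio lies farthest below 1 with an interval that does not reach 1; PSG7 and PSG3, with 0 counts in APC, have no point for APC.

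The size of the difference varied between members. The counting intervals of PSG1 (28.8 to 105) and PSG11 (18.6 to 271) against CONTROL did not overlap those of PSG8 (4.72, interval 2.06 to 12.6) and PSG9 (2.75, interval 1.39 to 5.84). PSG5 lay between them at 15.1, with an interval of 5.59 to 57.0 that overlaps all 4. PSG2 had the highest ratio, 64.1, but its interval of 11.1 to 2570 overlaps that of PSG8. Against SW480 the ratios of PSG1, PSG5, PSG9 and PSG8 were 53.8, 23.3, 8.24 and 5.92, with intervals of 29.8 to 108, 8.82 to 87.2, 4.52 to 16.5 and 2.64 to 15.6. There the intervals of PSG1 and PSG11 again lay above those of PSG9 and PSG8, and those of PSG2 and PSG5 overlapped them. Differences between members were not tested as such, and members can share reads.

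The make-up of the family's reads by member was also set side by side. PSG1 supplied 26.2% of the 42 PSG counts in APC (exact 95% interval 13.9 to 42.0), against 59.5% of 988 in CONTROL (56.4 to 62.6) and 55.6% of 1130 in SW480 (52.6 to 58.5). PSG9 supplied 28.6% in APC (15.7 to 44.6), against 3.44% in CONTROL (2.39 to 4.78) and 9.29% in SW480 (7.66 to 11.1). PSG8 supplied 16.7% in APC (6.97 to 31.4), against 3.44% in CONTROL (2.39 to 4.78) and 3.89% in SW480 (2.84 to 5.19). PSG11 gave 7.14% in APC (1.50 to 19.5), against 17.3% in CONTROL and 14.8% in SW480. The intervals of PSG1, PSG9 and PSG8 in APC did not overlap those of either other line, and the single libraries varied, with PSG1 at 6, 1 and 4 counts and PSG8 at 2, 5 and 0.

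**Figure D3:**
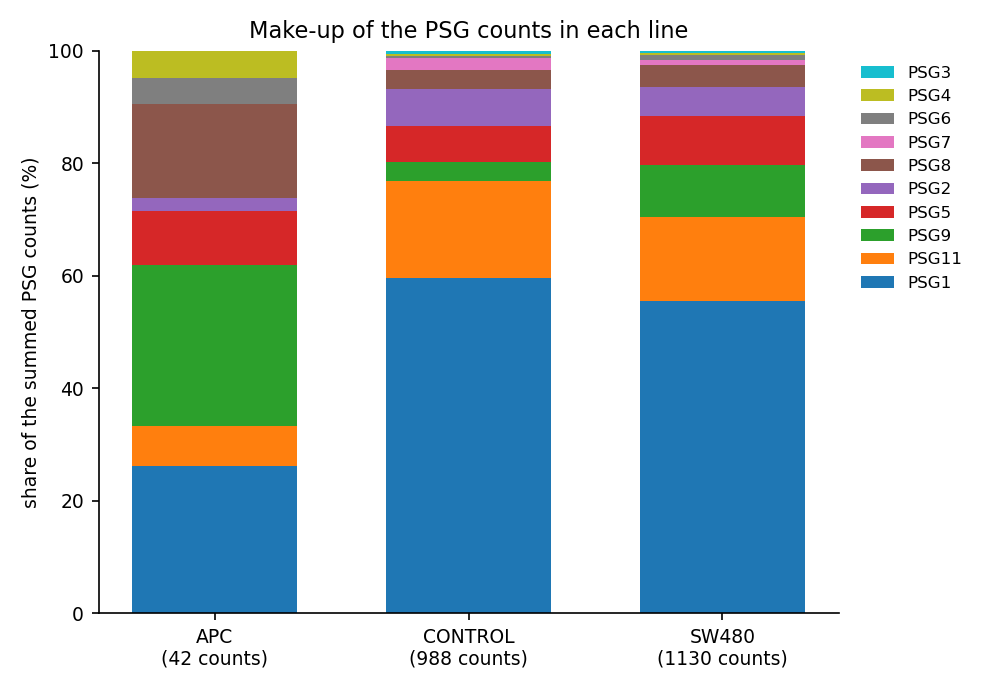
Share of the summed PSG counts (percent, vertical axis) that each member supplied in APC, CONTROL and SW480, 3 libraries pooled per line. PSG1 makes up 26.2% in APC, 59.5% in CONTROL and 55.6% in SW480, and the APC bar rests on 42 counts.

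Levels per transcript length (RPKM, read counts scaled by kilobases of transcript and by library) give the order of the members within a line. In APC the highest was PSG9 at 0.118 ± 0.0336 RPKM, then PSG1 at 0.0872 ± 0.0575, PSG8 at 0.0573 ± 0.0632, PSG5 at 0.0400 ± 0.0347 and PSG11 at 0.0324 ± 0.00137, and the libraries of each overlapped those of the next. In CONTROL PSG1 led at 4.61 ± 0.308 RPKM, then PSG11 at 1.81 ± 0.196, PSG2 at 0.659 ± 0.130 and PSG5 at 0.613 ± 0.0539. Below them in CONTROL came PSG9 at 0.321 ± 0.121 RPKM, PSG8 at 0.270 ± 0.0586 and PSG7 at 0.196 ± 0.115. PSG1 and PSG11 were separate from all others in CONTROL, while PSG2 and PSG5 overlapped each other, as did PSG9, PSG8 and PSG7.

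In SW480 PSG1 stood at 4.85 ± 0.547 RPKM and PSG11 at 1.73 ± 0.0852 RPKM, followed by PSG9 at 0.985 ± 0.136 and PSG5 at 0.967 ± 0.238. PSG2 had 0.576 ± 0.0772 RPKM in SW480 and PSG8 0.347 ± 0.117. PSG9 and PSG5 overlapped in SW480, and each other neighbouring pair among these 6 was separate. PSG7, PSG6, PSG3 and PSG4 were at or under 0.105 RPKM in SW480. The order thus differed between CONTROL and SW480 most clearly at PSG9, which ranked above PSG2 in SW480 and below it in CONTROL with no overlap of libraries in either line. PSG5 moved too, from a mean just below PSG2 with overlap in CONTROL to above it without overlap in SW480.

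CONTROL and SW480 differed for 2 of the 6 tested members, PSG9 and PSG5, both lower in CONTROL. None was higher by edgeR, at an unadjusted p under 0.05 (0) or by DESeq2 (0). Of all genes tested 24.7% were lower and 25.3% higher in this comparison. PSG9 fell by 1.57 ± 0.27 on the log2 scale (edgeR adjusted p = 1.38e-05), a ratio of summed reads of 2.99 with an interval of 2.02 to 4.55, and its 8, 9 and 17 counts in CONTROL lay under the 39, 36 and 30 in SW480. PSG5 fell by 0.63 ± 0.25 (edgeR adjusted p = 0.0356), but DESeq2, at the same log2 fold change of −0.63, gave an adjusted p of 0.19, and leaving out SW480 replicate 2 gave −0.44 (edgeR adjusted p = 0.204).

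The remaining tested members did not pass between CONTROL and SW480. PSG1 had a log2 fold change of −0.05 ± 0.10 (edgeR adjusted p = 0.699), with a counting interval of the SW480 to CONTROL ratio of 0.924 to 1.16. PSG11 had 0.08 ± 0.16 (edgeR adjusted p = 0.709), PSG2 0.23 ± 0.27 (edgeR adjusted p = 0.502) and PSG8 −0.32 ± 0.37 (edgeR adjusted p = 0.488). The median over the 6 was −0.19, beside −0.01 over all genes tested. PSG7 ran the other way, with 20 counts in CONTROL and 11 in SW480, a SW480 to CONTROL ratio of 0.533 whose interval of 0.231 to 1.17 includes 1.

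Set against PSG1 in the same library, the PSG9 count was 3.72%, 5.42% and 8.21% in CONTROL and 19.0%, 15.4% and 15.9% in SW480, with no overlap. The PSG5 count was 10.7%, 10.2% and 10.6% of PSG1 in CONTROL and 16.1%, 17.5% and 13.2% in SW480. In an exact two-sided permutation test on the log2 scale both differences had p = 0.1, the smallest value that 3 against 3 libraries can give, and 0.15 after Benjamini-Hochberg adjustment over 3 ratios. PSG11 against PSG1 differed by 0.13 on the log2 scale (exact permutation p = 0.6). The 3 ratios were chosen after the values had been seen.

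The likeness between members was measured on the GENCODE 29 transcripts, because a read that fits several members may be counted for any of them, and neither read length nor the treatment of such reads is given in the sources used here. Of the 50-base windows of PSG1, 37.2% occurred in another PSG gene, PSG10P included. The share was 38.9% for PSG8, 29.2% for PSG2, 27.3% for PSG5, 25.8% for PSG11 and 23.6% for PSG9. PSG9 was thus the most distinct of the 6 tested members, and with 100-base windows its share was 2.05%, against 16.3% for PSG1 and 15.0% for PSG8. PSG1 shared 20.3% of its 50-base windows with PSG8, and PSG2 shared 19.0% with PSG11. The longest run of identical coding bases was 186 between PSG1 and PSG8 and also 186 between PSG2 and PSG11, against 72 between PSG1 and PSG9. Whether reads of PSG1 were counted for PSG8, or those of PSG11 for PSG2, was not tested.

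**Figure D4:**
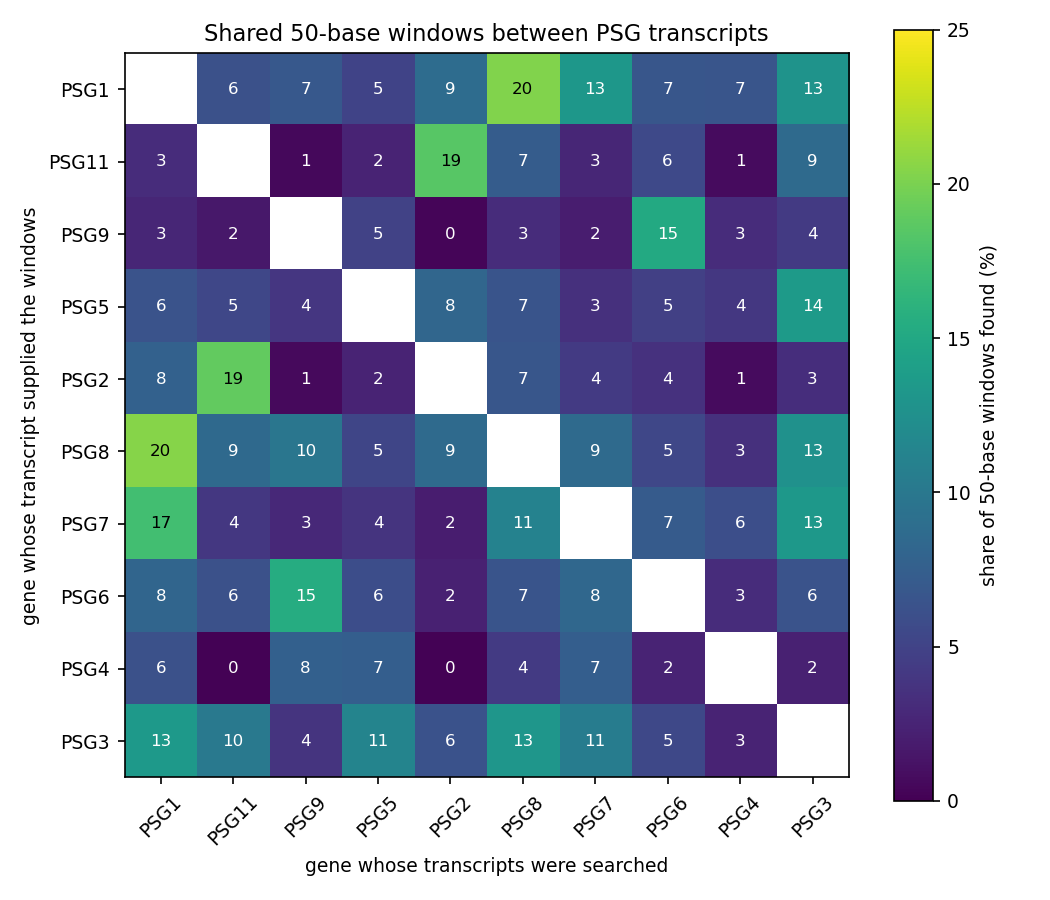
Share of the 50-base windows of each PSG transcript (row) that occur in the transcripts of another PSG gene (column), in percent, by colour and number. The PSG1 and PSG8 pair and the PSG2 and PSG11 pair share the most, and PSG9 shares most with PSG6.

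Promoter sequence was at hand for 3 of the 10 members in the RefSeq table (build GRCh38.p14), PSG3, PSG4 and PSG5. The 250 bases before the transcription start are shown because placental work has placed a core promoter element that binds KLF and SP factors there. Capitals mark each match to the letters CCCACCC, a box that KLF factors bind, or the letters CCCGCCC, a box that SP factors bind, on either strand. The motifs, which cannot both match at 1 place, were chosen with the sequences in view.
PSG5 (chr19:43186537-43186786, minus strand): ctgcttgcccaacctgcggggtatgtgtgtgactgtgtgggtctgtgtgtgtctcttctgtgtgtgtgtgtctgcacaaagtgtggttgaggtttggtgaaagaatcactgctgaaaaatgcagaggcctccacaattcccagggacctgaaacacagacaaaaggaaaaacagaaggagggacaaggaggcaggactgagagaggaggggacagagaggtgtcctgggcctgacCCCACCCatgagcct
PSG3 (chr19:42740482-42740731, minus strand): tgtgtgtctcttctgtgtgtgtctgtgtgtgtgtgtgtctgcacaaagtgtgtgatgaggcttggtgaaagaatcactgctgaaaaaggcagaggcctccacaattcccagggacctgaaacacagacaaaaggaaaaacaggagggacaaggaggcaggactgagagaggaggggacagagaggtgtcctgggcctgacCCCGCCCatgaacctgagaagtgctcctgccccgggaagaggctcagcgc
PSG4 (chr19:43205639-43205888, minus strand): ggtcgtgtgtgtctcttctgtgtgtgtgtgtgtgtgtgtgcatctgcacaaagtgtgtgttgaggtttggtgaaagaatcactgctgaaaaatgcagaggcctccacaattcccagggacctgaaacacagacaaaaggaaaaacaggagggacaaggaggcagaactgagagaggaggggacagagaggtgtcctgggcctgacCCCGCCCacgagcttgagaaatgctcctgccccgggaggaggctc
PSG5 held CCCACCC 15 bases before its start and no CCCGCCC, while PSG3 and PSG4 held CCCGCCC 50 and 45 bases before theirs and no CCCACCC. In all 3 windows the box follows the same stretch of bases, so the unequal distances reflect where each start is annotated. At that place the boxes differ only in A against G. Of 35116 promoter windows of this length, 18.2% held CCCACCC and 31.5% held CCCGCCC on either strand. CTTTGAT, the core that TCF and LEF factors bind with beta-catenin, was in none of the 3 windows and in 2.26% of all. Where they aligned, PSG3 and PSG5 had 96.3% of bases identical, PSG3 and PSG4 95.1%, and PSG5 and PSG4 95.0%. Over the 9 libraries PSG5, PSG3 and PSG4 gave 165, 9 and 11 counts, and whether the boxes bear on these levels was not tested.

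Of 9 genes for factors reported to act on PSG promoters, all were tested, 3 were lower in APC than in both other lines and 1 was higher than in both, where 28% of all genes tested were lower in both and 27.8% higher in both. KLF4, which binds the PSG5 promoter in placental cells, was at 28.8 ± 0.737 CPM in APC, 6.92 ± 0.199 CPM in CONTROL and 4.67 ± 0.662 CPM in SW480, 2.05 ± 0.08 higher on the log2 scale than in CONTROL (edgeR adjusted p = 4.9e-21). The lower ones were SP1 at 106 CPM in APC, 143 in CONTROL and 131 in SW480, RARA at 28.2, 47.5 and 39.1 CPM in the same lines, and GABPB1 at 26.1, 31.3 and 32.9 CPM. SP3, the most abundant, stood at 143, 147 and 151 CPM. The list's median log2 fold change was −0.05 against CONTROL and −0.09 against SW480, beside −0.01 over all genes tested in each.

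**Figure D5:**
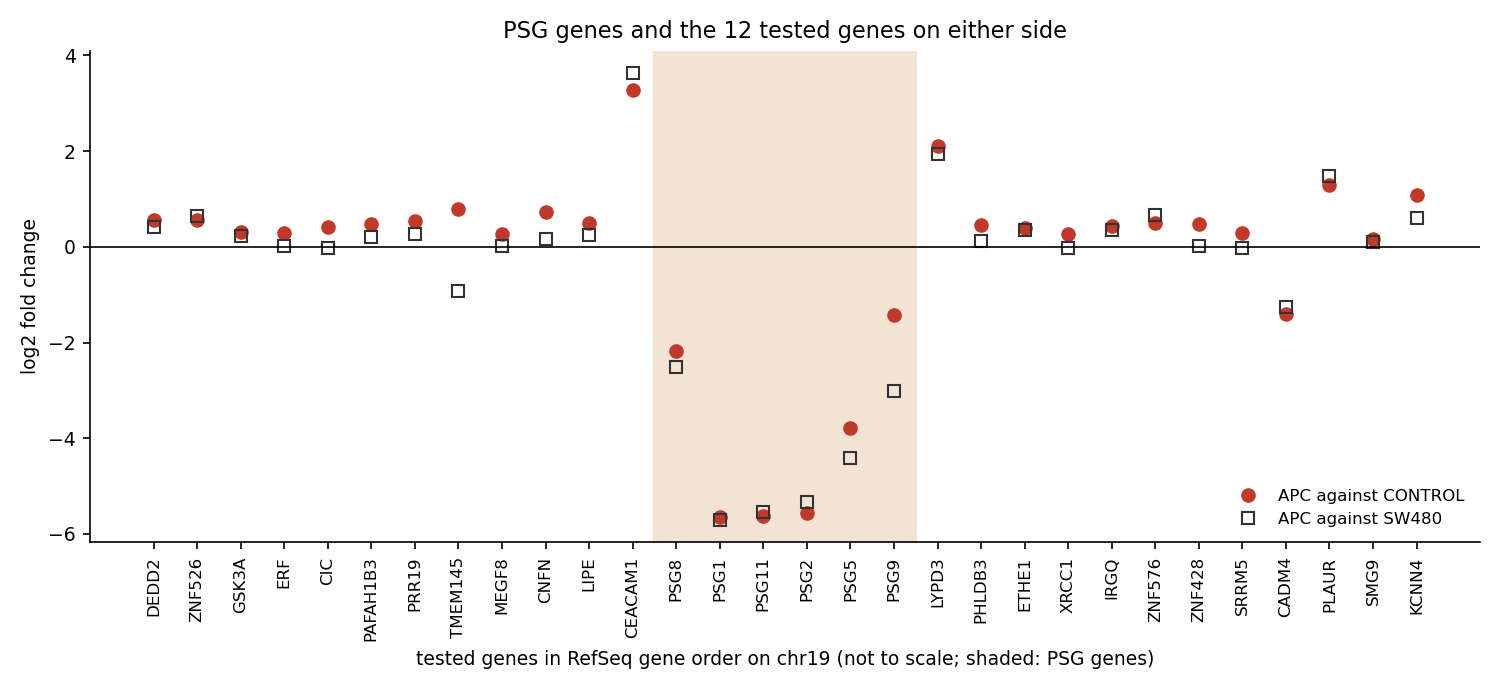
Log2 fold change of the 6 tested PSG genes (shaded) and the 12 tested genes on either side in RefSeq gene order on chromosome 19, not to scale, for APC against CONTROL (filled) and APC against SW480 (open). The PSG genes lie between −1.43 and −5.70, and the nearest tested genes on either side, CEACAM1 and LYPD3, lie above 0.

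On chromosome 19 the cluster runs PSG3, PSG8, PSG10P, PSG1, PSG6, PSG7, PSG11, PSG2, PSG5, PSG4 and PSG9 in the RefSeq order, and no gene other than PSGs in it was tested. Of the 24 tested genes nearest to it, 12 on each side, 23 were higher and 1, CADM4, was lower in APC than in CONTROL, with a median log2 fold change of 0.48, where 34.8% of all genes tested were higher and 35.4% lower. Against SW480 14 were higher and 2 lower, with a median of 0.21, where 35.6% of all were higher and 36.9% lower. The medians over all genes tested were −0.01 in both. PSG3, at one end of the cluster, was too low to test, while PSG9, at the other end, fell. CEACAM1, an adhesion receptor gene and the nearest tested one on the side of PSG3, stood at 25.4 ± 1.07 CPM in APC, 2.61 ± 0.282 CPM in CONTROL and 2.04 ± 0.577 CPM in SW480, with log2 fold changes of 3.28 ± 0.11 and 3.63 ± 0.12. LYPD3, a membrane protein gene and the nearest tested one on the side of PSG9, stood at 9.18 ± 0.649 CPM in APC, 2.15 ± 0.461 CPM in CONTROL and 2.38 ± 0.248 CPM in SW480, with log2 fold changes of 2.11 ± 0.14 and 1.94 ± 0.14. The next tested genes out, LIPE and PHLDB3, had log2 fold changes of 0.50 and 0.46 against CONTROL, and of 0.24 and 0.12 against SW480, the last with an edgeR adjusted p of 0.234.

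Of 12 listed CEACAM genes, the other branch of the family, 9 were in the count table and 3 were tested, 1 lower and 1 higher than both other lines (28% and 27.8% of all genes tested). CEACAM1 was the higher one. CEACAM21 was at 0.171 ± 0.00555 CPM in APC, 8.16 ± 1.35 CPM in CONTROL and 3.58 ± 0.716 CPM in SW480, lower by a log2 fold change of −5.51 ± 0.28 against CONTROL (edgeR adjusted p = 2.09e-18). It was also higher in CONTROL than in SW480, by 1.18 on the log2 scale (edgeR adjusted p = 2.32e-08). The medians of the 3 were −0.55 against CONTROL and 0.19 against SW480. CEACAM5 and CEACAM6, the colon tumour antigens of the family, had 1 count or fewer in every library.

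Genes for proteins that PSGs bind or act on moved both ways. Of 14 listed, 12 were tested, with 5 lower and 5 higher in APC than in both other lines (28% and 27.8% of all genes tested) and medians of −0.16 against CONTROL and −0.03 against SW480. The growth factor gene TGFB1, whose latent product PSG1 and PSG9 activate, was lower, at 57.4 ± 5.10 CPM in APC, 74.9 ± 3.86 CPM in CONTROL and 88.2 ± 15.7 CPM in SW480, while TGFB2 was higher, at 12.4 ± 1.54, 3.98 ± 0.540 and 7.43 ± 0.388 CPM. Of the proteoglycan genes, SDC4 was higher at 780 CPM in APC, against 159 in CONTROL and 157 in SW480. SDC3 was lower at 34.7 CPM in APC, against 79.8 in CONTROL and 145 in SW480, and GPC1 was lower at 150 CPM, against 186 and 213. CD9, the receptor of a mouse PSG, was higher at 754 CPM in APC, against 337 and 376. LGALS1, the galectin-1 gene, stood at 467, 522 and 553 CPM.

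Few other products of the placenta could be tested. Of 30 listed placental hormone and fusion genes 22 were in the count table and 4 were tested, with medians of 0.33 against CONTROL and 0.54 against SW480. KISS1, a peptide gene of trophoblast, was higher in APC, at 37.3 ± 2.47 CPM, against 2.10 ± 0.121 in CONTROL and 2.13 ± 0.0356 in SW480. PAPPA, a placental protease gene, was at 1.33 ± 0.387 CPM in APC, 12.7 ± 0.935 in CONTROL and 1.58 ± 0.114 in SW480. PGF and PLAC1, also tested, stood at 2.65, 2.55 and 3.33 CPM and at 1.12, 0.748 and 0.448 CPM in APC, CONTROL and SW480. SIGLEC6, too low to test, had 1, 0 and 0 counts in APC, 8, 6 and 8 in CONTROL and 16, 16 and 9 in SW480. CGA, CSH1, GH2, INSL4 and ERVW-1 were not in the count table, so their levels are not known. The chorionic gonadotropin genes CGB, CGB5, CGB7 and CGB8 had 5 counts or fewer in every library and CSHL1 and LGALS13 had 0. GCM1, the factor that drives trophoblast fusion, had 2 or fewer. These markers were singled out after their values were seen. Of 14 trophoblast transcription factor genes 10 were tested, 5 lower and 3 higher in APC than in both other lines (28% and 27.8% of all genes tested), with medians of −0.64 and −0.26.

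Among those factors DLX3 was at 0.591 ± 0.0836 CPM in APC, 5.05 ± 0.577 in CONTROL and 5.89 ± 0.828 in SW480. GATA2 was at 15.8, 33.4 and 44.2 CPM in the same lines and MSX2 at 7.62, 15.5 and 14.0 CPM. PPARG was higher, at 17.3 CPM in APC, against 2.01 in CONTROL and 1.58 in SW480, and TFAP2C at 30.9 CPM, against 8.97 and 10.6. TEAD4, the most abundant, stood at 47.1, 56.4 and 53.3 CPM.

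The tissue label was checked against marker genes. Of 10 colon epithelium markers 6 were tested, and KRT8, a keratin gene, stood at 2971 CPM in APC, 2883 in CONTROL and 2585 in SW480. EPCAM was at 382, 42.4 and 49.4 CPM and CDX2 at 14.9, 24.7 and 27.1 CPM, while KRT20, CDX1, CDH17 and LGALS4 had 5 counts or fewer in every library. The summed level of the list was 6068 to 6245 CPM in APC, 6014 to 6314 in CONTROL and 5393 to 6036 in SW480. Most of that sum came from KRT8 and KRT18, the latter at 2160, 2797 and 2306 CPM, so it says little of the other markers. VIL1, for one, stood at 4.62 CPM in APC, 0.414 in CONTROL and 0.304 in SW480. Markers of other cell types were low beside KRT8. The fibroblast markers were not low beside the PSG genes, which summed to 18.2 CPM in CONTROL and 20.2 CPM in SW480. Of 3 tested leukocyte markers 2 were higher in APC than in CONTROL, of 2 fibroblast markers 1 was lower, and 1 endothelial marker did not pass. Of all genes tested 34.8% were higher and 35.4% lower in that comparison. The summed levels in APC, CONTROL and SW480 were 2.53 to 3.16, 0.799 to 1.50 and 2.42 to 2.63 CPM for 5 leukocyte markers, 11.7 to 13.0, 12.8 to 15.8 and 16.4 to 18.3 CPM for 4 fibroblast markers, and 1.15 to 1.52, 1.04 to 1.29 and 0.698 to 0.750 CPM for 4 endothelial markers. Of the fibroblast markers COL1A1 stood at 12.2, 11.0 and 13.1 CPM and PDGFRB at 0.0766, 3.17 and 3.90 CPM. PDGFRB thus fell in APC as the PSG genes did, with log2 fold changes of −5.26 against CONTROL and −5.56 against SW480. CD3E, LUM, CDH5 and KDR had 2 counts or fewer in every library, but other markers of these lists differed between lines. The leukocyte marker ITGAM had 16, 21 and 17 counts in APC, against 1, 0 and 1 in CONTROL and 1, 2 and 0 in SW480. The endothelial marker PECAM1 had 4, 3 and 4 counts in APC and 0 in every other library. The fibroblast marker COL1A2 had 0, 0 and 1 counts in APC, 1, 0 and 0 in CONTROL and 7, 7 and 3 in SW480. The part of any other cell type in the PSG difference was not tested.

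The genes whose levels followed the summed PSG level most closely were found among the 13287 tested non-member genes with a mean of at least 1 CPM, by the root mean square difference of centred log2(CPM + 0.5) values over the 9 libraries. These 9 points fall into the 3 lines, so the measure mainly reads the differences between lines. The closest were ZNF185 at 0.137, EPS8L3 at 0.141, MUC16 at 0.142, SEPTIN4 at 0.153, NTRK2 at 0.171 and RNF144A at 0.185 log2 units. MUC16, the mucin that carries the CA-125 antigen, was at 0.134 ± 0.0362 CPM in APC, 8.20 ± 1.26 CPM in CONTROL and 9.87 ± 0.220 CPM in SW480. ZNF185 was at 2.27 CPM in APC, 38.3 in CONTROL and 49.7 in SW480, and EPS8L3 at 0.991, 21.7 and 28.2 CPM. SEPTIN4 was at 1.37, 26.5 and 24.9 CPM, NTRK2, a neurotrophin receptor gene, at 0.516, 17.3 and 15.5 CPM, and RNF144A at 0.321, 8.92 and 13.0 CPM. Like the PSG genes, all 6 were lower in APC than in both other lines, which the measure of likeness fixes.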

How the data were processed

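The files hold whole-number read counts per RefSeq transcript, deposited without normalisation, and RPKM values that the authors made from them: RPKM equalled count over transcript length times 1 constant per library (tolerance 0.0001). Trimmomatic, TopHat, GATK and the build hg19 are named in the submitters' processing notes. How reads were counted, their strand and their length are not given in the sources. Of 39276 transcripts, 1 per gene was kept, the one with the highest total count, and 62 of 65 date-altered names were repaired. Counts were tested with edgeR 4.0.16 (R 4.3.3; TMM, filterByExpr, robust quasi-likelihood fit, 9 libraries, 3 contrasts, Benjamini-Hochberg over 14255 genes), tested on simulated data. SE is the log2 fold change over the square root of F, and the BCV was 3.56%. For every tested PSG gene this SE was smaller than that of DESeq2, and it can understate counting error where reads are few. Alternatives used DESeq2 1.42.0 and limma 3.58.1. Named genes were all members, up to 3 genes per direction and the 2 most abundant of each list, the 2 nearest neighbours per side and the 6 most alike. The members and lists were chosen with earlier results of these data known.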

Additional observations from a re-analysis of the deposited data

How the results depend on the processing

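The 6 tested members stayed lower in APC under each alternative that tested them, and none reversed. Against CONTROL the number called lower ran from 4 (only the 6 libraries compared, where the filter drops PSG8 and PSG9) to 8 (no filter, which adds PSG3 and PSG7), and against SW480 from 5 to 7. The unfiltered call of PSG3 rests on 0 counts in APC against 5 in CONTROL, too few to rely on. Leaving out 1 library gave 5 to 6 against CONTROL and 6 against SW480. For CONTROL against SW480 the 2 members called lower became 1 with DESeq2 (PSG9), 0 at a minimum fold of 2, and 1 to 2 when 1 library was left out. PSG5 did not pass without CONTROL replicate 1, 2 or 3 (log2 fold changes −0.69, −0.57 and −0.63, edgeR adjusted p = 0.056, 0.0994 and 0.082) or SW480 replicate 1 (−0.63, 0.0621), where fewer samples were fitted. A pseudocount shrinks the folds of low genes: on log2(RPKM + 1) and log2(RPKM + 0.1) PSG1 was at −2.37 and −4.70 against CONTROL (limma). Same-numbered plates did not deviate together (correlations of −0.066 to 0.081), so the numbers do not pair the samples. With the replicate block the numbers called lower were 6, 6 and 2. No member was called higher under any setting. The depth limits PSG3, PSG4, PSG6 and PSG7, and in APC the 42 counts left to the family limit every ratio and share.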
